A study of Mus musculus with 18 samples.

Results

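Mutant and non-mutant stem cells of the hair follicle bulge (HF-SCs), sorted from the same psoriasis-like mice, were compared, which makes 6 of the 18 libraries of the series, 3 of mutant HF-SC GFP and 3 of non-mutant HF-SC Tom cells. The libraries were chosen by their sample labels alone, and the fractions were paired by mouse (814, 815 and 817). These DKO* mice were male or female animals of mixed background, carried floxed JunB and c-Jun alleles, K5-Cre-ERT and the mT/mG reporter, were 8 weeks old, and received 4 daily injections of 2 mg tamoxifen. In this reporter, membrane Tomato is replaced by membrane GFP in cells where Cre has acted. K5-Cre-ERT is driven by a keratin 5 promoter and so acts in basal keratinocytes and K5+ stem cells, while cells of other lineages keep Tomato. A Tom cell is therefore unrecombined as far as the reporter shows, and it comes from inflamed skin. Ear epidermis was taken at day 7 and sorted as CD45- CD49f high CD34+ cells. CD31, an endothelial surface marker, is among the stains of the study's methods for some experiments and is not among the stains that the labels of these libraries name. Basal keratinocytes (b-KCs) of the same 3 mice gave 6 further libraries, and HF-SCs of 3 control mice (Co) serve as values for orientation. Co mice carried the same reporter and a K5-driven Cre with wild-type or heterozygous Jun and Junb, and were of the same age, received the same tamoxifen and were sampled on the same day as the DKO* mice. Labels of the Co libraries name no reporter colour, so Co cells were not split into GFP and Tom as far as the labels show.

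The comparison asks which transcripts differ between recombined and unrecombined cells that share an inflamed skin. Since cells of other lineages keep Tomato, the fractions can also differ in cell types, and the contrast does not isolate the deletion. c-Jun and JunB are subunits of the transcription factor AP-1, which binds DNA as dimers of Jun and Fos proteins and controls stress, cytokine and differentiation genes of keratinocytes. Bulge HF-SCs are slow-cycling cells marked by CD34 and keratin 15 that renew the hair follicle and can feed the epidermis after injury. Keratinocytes that sense damage release alarmins such as TSLP, a cytokine that acts on dendritic cells and T cells through a receptor made of Crlf2 and Il7r. E-selectin (Sele) sits on activated venules and slows leukocytes, and CD34 and CD49f are carried by vascular endothelium as well as by bulge cells.

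Levels are FPKM, read counts scaled by the authors for transcript length and sequencing depth, and differences are log2(FPKM + 1) of GFP minus Tom in the same mouse, so positive values are higher in mutant cells. This scale understates the change of genes at low FPKM. From the steps of low FPKM values, 16460000 to 25960000 reads stood behind each of the 6 libraries, and 3 reads on 1 kb of transcript were worth 0.116 to 0.182 FPKM. In bulk libraries, fewer cells of a type and less RNA per cell cannot be told apart. Both fractions expressed bulge markers. Cd34 stood at 161, 206 and 228 FPKM in GFP and 259.6, 319 and 279.6 in Tom, each given for mice 814, 815 and 817 in this order as throughout, while the 6 b-KC libraries of these mice reached at most 2.53 FPKM. Both fractions were sorted as CD34+ and b-KCs lie outside that gate, so this contrast was fixed by the sort. Endothelium carries CD34 as well. Krt15, a bulge keratin, was at 3163, 4004 and 5405 FPKM in GFP and 2848, 3342 and 5841 in Tom. The 23 bulge stem cell markers, Cd34 among them, summed to 4970 to 8034 FPKM in GFP, 4735 to 8664 in Tom and 754 to 2127 in the b-KC libraries of these mice. They summed to 6732 to 17834 FPKM in HF-SC Co and to 4389.6 to 4786 in b-KC Co. Both fractions were thus above b-KCs of the same mice, while the Tom library of mouse 814 lay within the range of b-KC Co. The Tom fraction also held endothelial transcripts, against its label as a stem cell fraction: 61 endothelial markers summed to 1110.1 to 4219 FPKM in Tom and to 121 to 181 FPKM in GFP. These transcripts are described apart. Outside the closing section of flagged results, 58 genes are named as higher in Tom. Of these, 32 were below the level for a test in b-KCs, where endothelial transcripts were rare. Another 17 were tested there and not called, 7 were called higher in Tom and 2 higher in GFP.

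Both deleted genes, Jun and Junb, had less transcript in mutant than in non-mutant cells of all 3 mice. Jun lies on chromosome 4, 94715725 to 94718913 of NCBIM37. It was read at 69.6, 88.4 and 30.4 FPKM in GFP and at 308, 332 and 614 in Tom, beside 835, 1028 and 1086 in Co. Junb, on chromosome 8, 87500811 to 87502617, was read at 71.3, 77.5 and 38.6 FPKM in GFP and at 251, 278 and 402 in Tom, beside 463, 436 and 443 in Co. The 3 fractions did not overlap for either gene, with Tom between GFP and Co. The difference was -2.77 ± 0.47 for Jun (SE, n = 3 mice, adjusted p = 0.0302, limma with the mouse as a block) and -2.33 ± 0.33 for Junb (adjusted p = 0.0177). It was widest in mouse 817, at -4.29 for Jun and -3.35 for Junb. With no filter on low values, which enlarged the table to 19002 genes, neither gene passed (adjusted p = 0.135 and 0.106), and under the other 12 alternatives both did. Both transcripts were still read in GFP libraries. Transcripts that escaped deletion and cells recombined at the reporter alone cannot be told apart in bulk. Of the 10 AP-1 genes tested, only Jun and Junb passed the test. Fos, the usual partner of Jun proteins, was at 865, 900.3 and 1284 FPKM in GFP and 633, 762 and 932 in Tom (0.38 ± 0.18, adjusted p = 0.314). None of the other Fos, Jun, Batf and Atf genes was called, and Batf, at -0.79 ± 0.29, had the largest difference among them (adjusted p = 0.211). The list's median was -0.015, beside 0.020 over all genes tested.

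**Figure D1:**
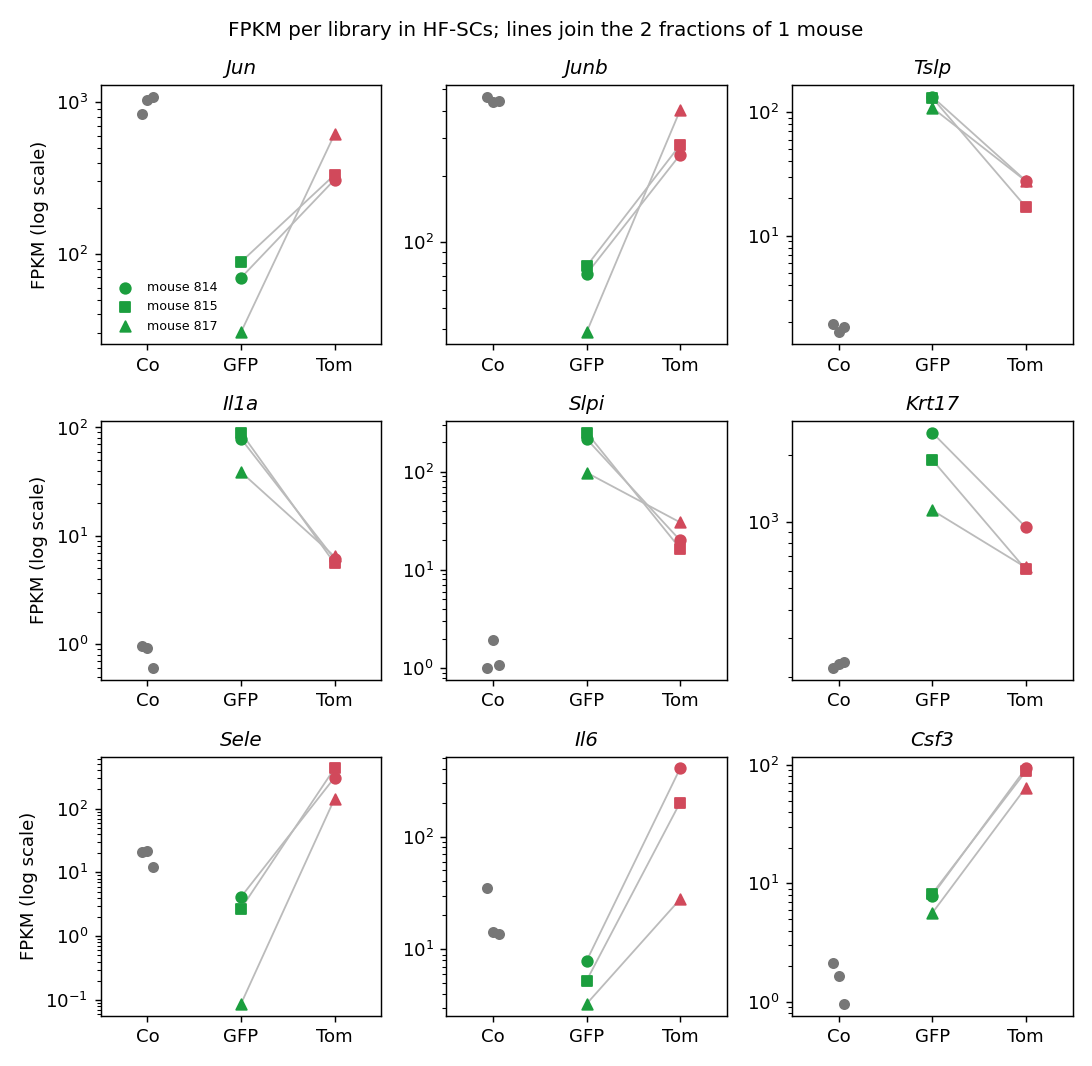
FPKM on log axes in the 3 HF-SC libraries each of Co (grey), GFP (green) and Tom (red), with lines between the fractions of 1 mouse. Jun, Junb, Sele, Il6 and Csf3 are lower in GFP than in Tom in each mouse, and Tslp, Il1a, Slpi and Krt17 are higher. The 3 Tom libraries of Tslp (17.1 to 27.8 FPKM) lie between the Co and the GFP libraries.

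Across all genes, 156 of 12039 tested were higher in HF-SC GFP (1.3%) and 496 were higher in HF-SC Tom (4.12%) at an adjusted p under 0.05, which makes 5.42% in both directions together. The counts given for gene lists have these shares as their background. The GFP side was led by the alarmin Il1a at 3.23 and held the protease inhibitor Slpi, the alarmin Tslp and defensins. The Tom side was led by the endothelial gene Sele at -6.60. No gene called higher in GFP was on any of the marker lists for other cell types, and 58 called higher in Tom were. GFP and Tom libraries did not overlap in 132 of the 156 and 473 of the 496 genes, against 18.5% of all genes tested. The median difference was 1.17 for the 156 genes and -1.91 for the 496. The counts rested on the mice used and on the pairing. Leaving out mouse 814 gave 60 genes higher in GFP and 349 higher in Tom. Leaving out mouse 815 gave 39 and 270, and leaving out mouse 817 gave 2288 and 2302. Without the mouse block, 59 and 318 were called, and scaling the libraries on basal epidermal genes gave 37 and 229. Every one of the 156 and 496 genes kept its direction under each of these settings, and without mouse 817 all of them were called again. Outside the closing section of flagged results, 96 called genes are named, and the counts that follow cover these alone. Of the 96, 67 were called without mouse 814, 61 without mouse 815, 96 without mouse 817 and 61 without the block. With the basal scaling 56 were called. With no filter on low values 32 were, and Jun, Junb, Il6 and Slpi were among the 64 not called. Those that depend on mouse 814 or 815 are named with their group. The 35 not called without the block were Adamts1, Adamts5, Angptl7, Casp8, Ccl2, Cdk1, Cdkn2c, Chil1, Crabp2, Cst6, Defb3, Defb6, Ednrb, Egfr, Fzd7, Gadd45g, Gbp3, Gsdma, Icam1, Igfbp3, Il20, Il6, Ivl, Krt17, Lcn2, Mmp2, Mylk, Notch1, Orm1, Pmaip1, Prss27, Rel, Sprr2b, Tagln and Traf1. Calls were gained as well. Of 25 genes named outside the section of flagged results that did not pass, 18 passed without mouse 817 (Areg, Batf, Cd34, Crlf2, Cxcl3, Fetub, Il1b, Il23a, Klk7, Krt10, Lhx2, Lif, Lyve1, Psors1c2, Ptgs2, Sox9, Tnf and Vegfa). Of these, 12 also passed with a random mouse block over 18 libraries, 7 with a fixed block over 12 libraries, 5 without a block over 18 libraries and 1 with a pseudocount of 0.1, and none with either other mouse left out.

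**Figure D2:**
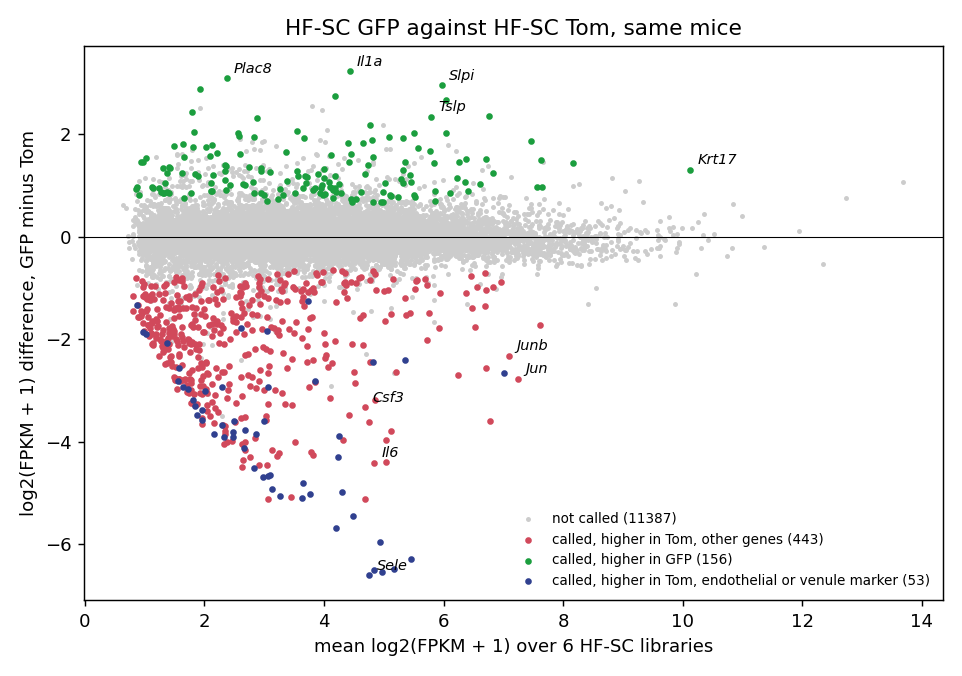
Difference between GFP and Tom, as log2(FPKM + 1), against the mean level over the 6 HF-SC libraries, 1 point per gene. Green points are the 156 genes called higher in GFP, red and blue points the 496 called higher in Tom, and blue points the 53 of these that are endothelial or venule markers. The largest difference, that of Sele at -6.60, and those next to it lie on the Tom side and belong to vascular markers.

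The alarmin Il1a, on chromosome 2, 129125346 to 129135708, which encodes interleukin-1 alpha and is stored in keratinocytes, differed most among genes higher in GFP. Mutant cells held 78.7, 89.8 and 38.8 FPKM and non-mutant cells 6.12, 5.59 and 6.46, a mean ratio of 11.4, and 0.963, 0.922 and 0.603 in Co. The 6 DKO* libraries separated fully, and the 3 Tom libraries were close to each other. The difference was 3.23 ± 0.28 (adjusted p = 0.00354). Tslp had 133, 131 and 109 FPKM in GFP and 27.8, 17.1 and 27.7 in Tom, a mean ratio of 5.13, beside 1.93, 1.65 and 1.81 in Co. Each GFP library was thus above each Tom library, and each Tom library was above each Co library. The difference of 2.34 ± 0.21 (adjusted p = 0.00379) and that of Il1a passed the test under all 13 alternatives of model, filter, scaling and mice.

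AP-1 dimers bind the letters TGANTCA, and the cyclic AMP form TGACGTCA is bound by related dimers. RefSeq promoters (GRCm38.p6, 250 bases before to 50 after the start, both strands) were searched for these letters. TGANTCA was in 13 of 119 genes called higher in GFP that matched an entry (10.9%), in 44 of 333 called higher in Tom (13.2%) and in 580 of 9049 genes tested (6.41%), against 7.81% of all 32851 promoters of the table. TGACGTCA was in 1 of the 119 (0.84%), 2 of the 333 (0.601%) and 338 of the 9049 (3.74%), and in 1.79% of all promoters. These letters read the same on both strands, and a promoter that held both motifs was counted for each. Il1a, Sele and Il6 hold TGANTCA in the 250 bases before the start, which are shown with the match in capitals. Il1a and Sele had the largest difference on their side, and Il6 had the largest difference on the list of alarmins and secreted factors. The match begins at position -12 from the start of transcription in Il1a and at -73 in Sele, and that of Il6 begins at the second base of the window. Of 27 genes looked up by name, 23 matched an entry and 4 held a motif, these 3 and Lif, which was not called (0.29 ± 0.18, adjusted p = 0.445). Tslp, Spink5, Orm1 and Il23a were not searched. A match describes these letters only.
Il1a, chr2:129309973-129310222, minus strand: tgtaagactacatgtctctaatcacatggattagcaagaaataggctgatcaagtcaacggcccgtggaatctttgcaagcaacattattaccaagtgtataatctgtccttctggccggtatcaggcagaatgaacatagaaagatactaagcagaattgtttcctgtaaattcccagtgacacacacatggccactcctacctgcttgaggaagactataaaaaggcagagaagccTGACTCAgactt
Sele, chr1:164047984-164048233, plus strand: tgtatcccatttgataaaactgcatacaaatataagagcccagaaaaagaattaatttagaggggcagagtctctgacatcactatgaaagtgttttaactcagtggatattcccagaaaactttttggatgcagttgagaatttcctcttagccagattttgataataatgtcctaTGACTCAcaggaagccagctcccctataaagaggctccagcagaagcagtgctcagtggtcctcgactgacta
Il6, chr5:30012864-30013113, plus strand: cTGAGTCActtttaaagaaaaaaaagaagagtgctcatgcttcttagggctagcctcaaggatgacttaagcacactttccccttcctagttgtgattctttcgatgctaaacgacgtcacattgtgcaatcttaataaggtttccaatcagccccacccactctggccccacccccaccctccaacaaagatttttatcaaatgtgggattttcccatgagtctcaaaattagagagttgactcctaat

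Secreted inflammatory factors were called in both directions. Of the 26 alarmins and secreted factors listed, 22 were tested, 4 were higher in GFP (Il1a, Tslp, Il20 and Il1rn), 2 were higher in Tom (Il6 and Csf3) and 16 did not pass, with a list median of 0.75. That median stayed above 0 with the basal scaling, at 0.52. Il20, a keratinocyte cytokine of the interleukin-10 family, was at 1.69, 4.77 and 1.23 FPKM in GFP and 0.147, 0.277 and 0.141 in Tom and was listed at 0 in all Co libraries (1.46 ± 0.26, adjusted p = 0.0348). Since Il20 reached 1 FPKM in no Tom library, it entered the test through GFP alone. Il1rn, the interleukin-1 receptor antagonist, was at 139, 131 and 89.9 FPKM in GFP and 64.98, 52.1 and 51.98 in Tom (1.06 ± 0.16, adjusted p = 0.0208). The receptor agonist and its antagonist were thus both higher in mutant cells. Il23a, the p19 chain of interleukin-23, was at 8.21, 11.1 and 2.45 FPKM in GFP and 2.49, 2.04 and 1.71 in Tom and did not pass (adjusted p = 0.0964), its GFP library of mouse 817 lying within the Tom range. Calls were lost without mouse 814 for Il1rn (adjusted p = 0.104) and without mouse 815 for Il1rn and Il20 (adjusted p = 0.112 to 0.145). Il23a, however, passed under 3 of its alternatives, among them without mouse 817 (adjusted p = 1.39e-05). Tnf was at 11.9, 9.97 and 6.34 FPKM in GFP and 4.21, 5.29 and 4.22 in Tom, without overlap (adjusted p = 0.0723), and passed without mouse 817 (0.000281) and under 2 other settings of the block. Il1b, Lif, S100a9, Psors1c2 and Fetub did not pass either, with differences from -0.18 for Il1b to 1.90 for Psors1c2 and adjusted p from 0.0724 for Fetub to 0.812 for Il1b. Psors1c2 and Fetub passed under 4 alternatives each, those without mouse 817 (adjusted p = 4.47e-08 and 1.77e-05) and with 3 other settings of the block.

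Il6 and Csf3 were higher in Tom. Il6, on chromosome 5, 30339701 to 30346508, was at 7.91, 5.30 and 3.29 FPKM in mutant cells, 401, 200.1 and 27.8 in non-mutant cells and 35.1, 14.4 and 13.8 in Co. Tom libraries spread over a wide range, with mouse 817 lowest, yet stood above every GFP library (-4.41 ± 0.51, adjusted p = 0.00957), although the call was lost without the mouse block (adjusted p = 0.0513). Csf3, the granulocyte colony-stimulating factor, had 7.89, 8.19 and 5.62 FPKM in GFP, 93.3, 88.02 and 64.2 in Tom and 2.11, 1.65 and 0.963 in Co (-3.33 ± 0.13, adjusted p = 0.000437). Its difference was close to the same in the 3 mice, at -3.41, -3.28 and -3.30. In b-KCs of these mice, where 8 to 15 of the 61 endothelial markers reached 1 FPKM against 48 to 60 in HF-SC Tom, Il6 had 1.95, 3.26 and 3.85 FPKM in GFP and 11.7, 15.3 and 6.23 in Tom, which was called (-1.54, adjusted p = 0.0111), and Csf3 had 3.60, 2.93 and 0.380 in GFP and 3.18, 3.91 and 3.74 in Tom, which was not (adjusted p = 0.305). The difference of Csf3 lay further toward Tom in HF-SCs, by -2.67 relative to b-KCs (adjusted p = 0.00336), and for Il6 this difference of differences did not pass (-2.88, adjusted p = 0.12).

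Of 19 chemokines tested (median 0.083), Ccl20, the ligand of Ccr6 on Th17 cells, was higher in GFP, with 194, 193 and 145 FPKM against 53.5, 74.03 and 57.6 in Tom and 9.38, 5.89 and 10.8 in Co (1.51 ± 0.16, adjusted p = 0.00773). Ccl2, a monocyte attractant, was higher in Tom, with 4.22, 6.54 and 1.83 FPKM in GFP and 21.9, 27.2 and 3.56 in Tom (-1.58 ± 0.30, adjusted p = 0.0421), although its groups overlapped, and in b-KCs it was not called (-0.26, adjusted p = 0.553). Ccl2 did not pass without mouse 814 (adjusted p = 0.0885) or without mouse 815 (0.141). The other 17 did not pass, among them Cxcl3 (72.95, 60.01 and 51.2 FPKM in GFP and 15.6, 9.08 and 39.8 in Tom, adjusted p = 0.0923). A list of the Tslp receptor, its signalling genes and Il2rg had 7 tested members (median -0.47). Only Il2rg, the common gamma chain of other cytokine receptors and no chain of the Tslp receptor, was called, higher in Tom (8.98, 7.26 and 7.78 against 51.6, 48.02 and 18.1 FPKM, adjusted p = 0.0199), and in b-KCs it was not called (0.086, adjusted p = 0.845). Of the chains of the Tslp receptor itself, Il7r was below the level for a test, with at most 0.839 FPKM in GFP and 0.264 in Tom, and Crlf2 was low in both fractions, at 1.28, 1.82 and 1.39 FPKM in GFP and 3.62, 2.29 and 1.75 in Tom (adjusted p = 0.285).

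Antimicrobial peptides and proteins that passed the test were all higher in GFP. Of 27 antimicrobial and S100 genes tested, 5 were called higher in GFP (Slpi, Defb3, Cst6, Lcn2 and Defb6) and 0 higher in Tom, with a list median of 0.78, where 1.3% of all genes were called higher in GFP. Slpi, a secreted inhibitor of leukocyte elastase, had 215, 250.2 and 97.9 FPKM in GFP and 20.01, 16.5 and 30.5 in Tom, beside 1.00, 1.96 and 1.08 in Co (2.95 ± 0.41, adjusted p = 0.017). Lcn2, which binds bacterial siderophores, had 791, 466 and 288 FPKM in GFP and 305, 187 and 92.8 in Tom. Its groups overlapped between mice, and within each mouse GFP was above Tom (1.44 ± 0.16, adjusted p = 0.00785). The beta-defensins Defb3 and Defb6 differed by 1.66 and 1.25 (adjusted p = 0.00935 and 0.00842). S100a8 and S100a9, the subunits of calprotectin, differed by 1.06 and 0.76 and did not pass (adjusted p = 0.221 and 0.229). In each mouse the GFP library was above the Tom library for both, by 0.36 to 1.69 for S100a8. Calls were lost without mouse 814 for Cst6 (adjusted p = 0.0752) and without mouse 815 for Cst6 and Defb6 (adjusted p = 0.0514 to 0.123). Without the mouse block Defb6, Defb3, Lcn2 and Cst6 were not called (adjusted p = 0.611, 0.338, 0.262 and 0.0552), nor were they with the basal scaling (0.0647 to 0.0948), and Slpi was called under both.

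The other genes with the largest differences on the GFP side, among called genes whose GFP and Tom libraries did not overlap, were Plac8, Cd177, Serpinb3c, Wfdc17, Stfa2l1, Chil1, Prss27, Spink5, Slc26a4, Slc28a3, Cpt1c and Orm1, from 3.09 for Plac8 to 2.01 for Orm1. Plac8 had 30.2, 12.8 and 7.01 FPKM in GFP and 2.08, 0.492 and 0.223 in Tom (adjusted p = 0.00107). Cd177, known as a neutrophil surface protein, had 10.6, 6.55 and 11.5 FPKM in GFP and 0.601, 0.196 and 0.414 in Tom (adjusted p = 0.000986). It reached 1 FPKM in no Tom library and entered the test through GFP alone. Of the leukocyte markers, 0 of 9 tested were called, with a median of 0.019, where limma called 5.42% of all genes. In mouse 817 all 9 were higher in GFP (median 0.36), against 4 and 3 of 9 in mice 814 and 815. The 31 in the table summed to 42.6, 36.8 and 70.3 FPKM in GFP and 50.2, 49.8 and 53.3 in Tom, so that mouse 817, which had the highest Cd177 value, also had the highest sum. Their part in the Cd177 difference was not tested. Serpinb3c, Wfdc17, Stfa2l1 and Spink5 encode inhibitors of proteases. Wfdc17 had 159.7, 181 and 154 FPKM in GFP and 54.5, 18.1 and 15.8 in Tom, and Stfa2l1, at 8.33, 5.07 and 8.03 FPKM in GFP and 1.02, 0.184 and 0.375 in Tom, was listed at 0 in Co. Chil1, a chitinase-like protein, had 465, 369.9 and 82.7 FPKM in GFP and 66.6, 66.2 and 22.9 in Tom (2.35 ± 0.21, adjusted p = 0.00419), and neither Chil1 nor Orm1 was called without the mouse block (adjusted p = 0.167 and 0.164). Calls were lost without mouse 815 for Prss27 (adjusted p = 0.0723).

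Some of these genes were at their highest in GFP without being above Co in Tom. Spink5, an inhibitor of epidermal kallikreins, had 80.8, 63.97 and 35.9 FPKM in GFP, 11.9, 11.7 and 11.9 in Tom and 21.7, 25.4 and 14.6 in Co. Cpt1c, a carnitine palmitoyltransferase, had 8.90, 10.2 and 14.4 FPKM in GFP, 2.08, 1.84 and 1.94 in Tom and 4.64, 5.23 and 5.27 in Co. For both genes the Co libraries thus lay between Tom and GFP, whereas for Slpi, Tslp and Il1a the Tom libraries lay between Co and GFP.

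Lists of differentiation genes had medians above 0 in mice 814 and 815 and below 0 in mouse 817. All 40 cornified envelope genes tested, of 53 listed, had a positive difference with a median of 1.17, yet only 3 were called (Spink5, Sprr2b and Ivl, all higher in GFP), and 37 did not pass. The list median was 2.27 in mouse 814, 1.78 in mouse 815 and -0.22 in mouse 817, with 40, 39 and 15 of the 40 genes above 0. Ivl, the envelope precursor involucrin, was higher in GFP in each mouse and least so in mouse 817, with 54.1, 53.1 and 20.7 FPKM in GFP and 11.6, 7.75 and 11.9 in Tom (1.84 ± 0.36, adjusted p = 0.0462). Klk7, a kallikrein of the horny layer, had 72.2, 62.4 and 7.57 FPKM in GFP and 4.85, 12.1 and 5.91 in Tom and did not pass (adjusted p = 0.125). The suprabasal and stress keratin list had medians of 1.39, 1.57 and -0.12 in the 3 mice. Of its 12 tested members, Krt17 and Krt75 were called, both higher in GFP. Krt17, a stress and follicle keratin, had 2522, 1902 and 1127 FPKM in GFP, 945, 609.6 and 622 in Tom and 219, 227 and 232 in Co (1.30 ± 0.23, adjusted p = 0.0342). Krt10, the keratin of suprabasal cells, was at 354, 587 and 398 FPKM in GFP and 123, 183 and 431 in Tom (adjusted p = 0.204), with mouse 817 in the opposite direction to the others. The 13 sebaceous gland genes tested, none called, had medians of 1.34, 1.61 and -0.31, and the 30 sterol and fatty acid genes 0.99, 0.80 and -0.19, with only Elovl7 called. Calls were lost without mouse 814 for Ivl, Krt17, Krt75 and Elovl7 (adjusted p = 0.0532 to 0.225) and without mouse 815 for Ivl, Krt17, Krt75, Elovl7 and Sprr2b (adjusted p = 0.0634 to 0.283). Over the 32 gene lists, the median of mouse 817 was opposite in sign to those of both other mice in 18, with mice 814 and 815 above 0 in 14 of these and below 0 in 4 (apoptosis, interferon-stimulated, antigen presentation and ribosomal protein genes). List medians therefore depend on the mice, and leaving out 1 mouse moved 28 of the 32 by more than 1.5 times or across 0. The other 4 were alarmins and secreted factors, antimicrobial genes, suprabasal keratins and sterol genes. Mouse 817 was also the one with the fewest endothelial reads in Tom and with the largest Jun and Junb differences. Their part in these medians was not tested.

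**Figure D3:**
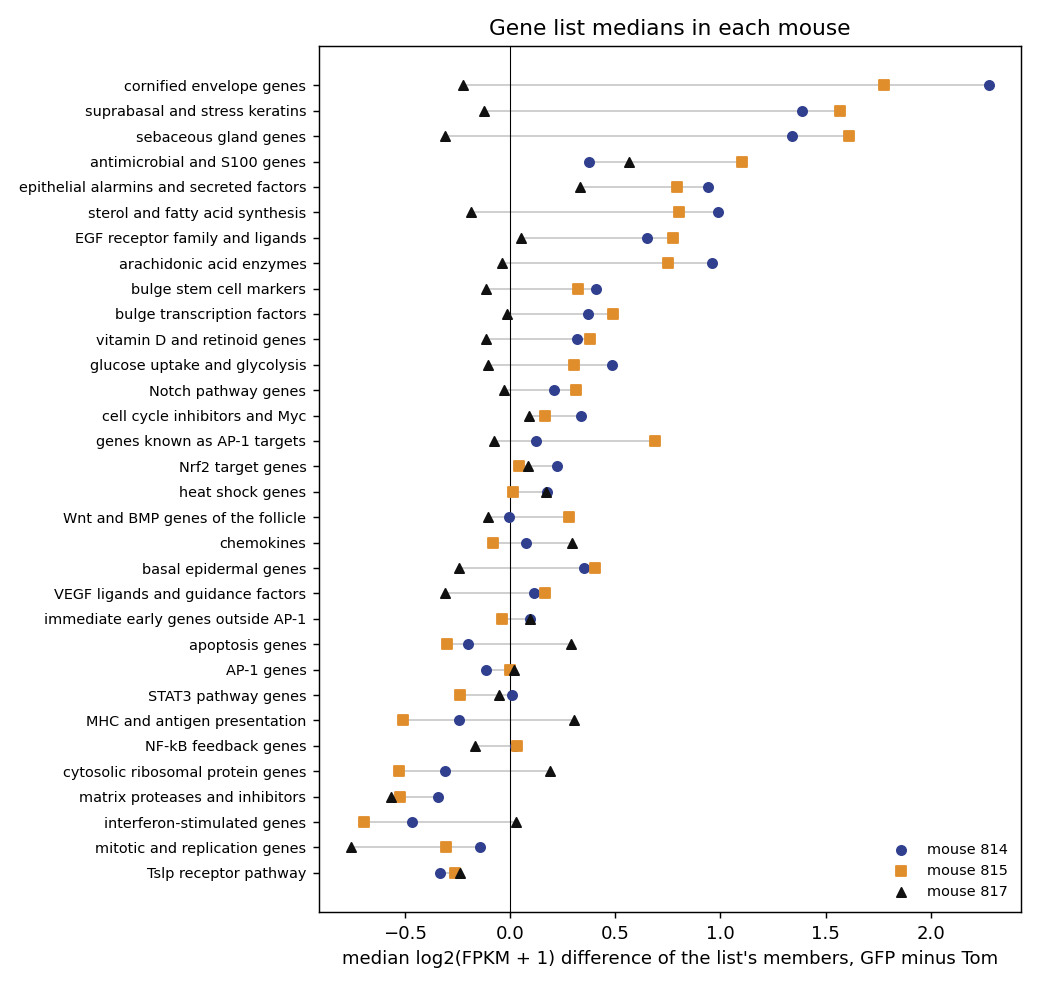
Median difference between GFP and Tom of the tested members of each gene list, as log2(FPKM + 1), with 1 symbol per mouse. For cornified envelope, suprabasal keratin, sebaceous and sterol genes, mice 814 and 815 lie far to the right and mouse 817 lies just below 0, whereas alarmins and antimicrobial genes are above 0 in the 3 mice.

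Of 66 bulge and basal genes tested in 3 lists, 3 were called (4.55%, against 5.42% of all genes). Of 23 bulge stem cell markers tested, Angptl7 and Fzd7 were higher in GFP, Igfbp3 was higher in Tom, and 20 did not pass, with a median of 0.26. Angptl7, a secreted angiopoietin-like protein, had 214, 251 and 408 FPKM in GFP, 90.3, 126 and 253 in Tom and 1361, 546 and 878 in Co (0.97 ± 0.17, adjusted p = 0.0324). Its groups overlapped, and GFP was above Tom within each mouse. None of 21 bulge transcription factors passed, at a median of 0.21. Lhx2, which keeps bulge cells quiescent, had 32.3, 47.9 and 35.9 FPKM in GFP and 17.6, 26.4 and 30.2 in Tom (95% interval of the difference 0.21 to 1.06, adjusted p = 0.111). Sox9, which specifies the bulge, had 38.9, 53.2 and 46.8 FPKM in GFP and 18.2, 31.1 and 58.2 in Tom (interval -0.18 to 1.18). None of 22 basal epidermal genes passed, with a median of 0.066. Krt5 and Krt14, the basal keratins, had intervals of -0.75 to 0.34 and -1.18 to 0.10, and Itga6, which encodes CD49f, had -0.41 to 0.57. Missing the threshold does not show the fractions to be alike for these genes. Angptl7, Fzd7 and Igfbp3 did not pass without mouse 814 (adjusted p = 0.295 to 0.33) or without mouse 815 (0.125 to 0.321).

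Of 106 genes tested in lists of growth and cell death, 8 were called (7.55%, against 5.42% of all genes). All 40 mitotic and replication genes tested had a negative difference, that is a lower value in GFP, with a median of -0.38 that stayed below 0 with both other scalings (-0.40 and -0.60), and only Cdk1 was called (30.7, 19.8 and 16.2 FPKM in GFP against 45.9, 36.1 and 28.2 in Tom, -0.72 ± 0.13, adjusted p = 0.0407). The medians were -0.14, -0.30 and -0.75 in mice 814, 815 and 817, where 13, 4 and 2 of the 40 genes were above 0. For Cdk1 both fractions were above Co, which had 2.93, 3.31 and 4.39 FPKM. Cdkn1a, which encodes the cell cycle inhibitor p21, was higher in GFP with 119.5, 90.8 and 124 FPKM against 42.8, 55.4 and 51.4 in Tom and 67.99, 52.04 and 58.1 in Co (1.14 ± 0.19, adjusted p = 0.0268). Of the 15 genes in that list, Cdkn2c was called as well, higher in Tom (-0.76, adjusted p = 0.0382), and in b-KCs it was not called (-0.23, adjusted p = 0.617). In the EGF receptor family, 15 genes were tested with a median of 0.54 (0.65, 0.78 and 0.051 in mice 814, 815 and 817, and 0.27 to 0.71 with 1 mouse left out), and only Egfr was called, higher in GFP (47.3, 59.1 and 73.3 FPKM in GFP and 24.1, 31.7 and 52.1 in Tom, adjusted p = 0.0488). Its ligand Areg, at 59.3, 54.7 and 28.2 FPKM in GFP and 14.8, 15.1 and 19.2 in Tom, missed the threshold (adjusted p = 0.0555) and passed under 5 of 13 alternatives, at 0.0499 with a pseudocount of 0.1 and 5.28e-07 without mouse 817. Notch1 was the only one of 12 Notch pathway genes called, at 16.3, 27.2 and 40.1 FPKM in GFP and 7.58, 9.89 and 17.8 in Tom (1.17 ± 0.14, adjusted p = 0.0113). Among 24 apoptosis genes, the pore-forming gasdermin Gsdma and the BH3-only gene Pmaip1 were higher in GFP and Casp8 was higher in Tom, by 1.96, 0.87 and -0.91, and Casp8 was not called in b-KCs (-0.21, adjusted p = 0.526). Calls were lost without mouse 814 for Cdk1, Cdkn1a, Cdkn2c, Egfr, Gsdma, Pmaip1 and Casp8 (adjusted p = 0.0529 to 0.387) and without mouse 815 for Cdk1, Cdkn2c, Egfr, Notch1, Gsdma, Pmaip1 and Casp8 (adjusted p = 0.0747 to 0.335).

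Of 22 arachidonic acid enzymes tested, 2 passed. The list median was 0.52, with 0.96, 0.75 and -0.036 in mice 814, 815 and 817 and 0.30 to 0.97 with 1 mouse left out. Alox8, an arachidonate lipoxygenase, was higher in GFP (76.6, 89.6 and 66.6 FPKM in GFP and 16.00, 17.8 and 25.8 in Tom, 1.93 ± 0.22, adjusted p = 0.00854). Ptgs1, the constitutive cyclooxygenase, was higher in Tom (16.3, 17.00 and 9.42 FPKM in GFP and 46.9, 48.4 and 32.5 in Tom, -1.54 ± 0.13, adjusted p = 0.00361). Both were called in the same direction in b-KCs, at 0.87 and -0.86. Ptgs2, the inducible enzyme, did not pass (43.5, 43.98 and 56.5 FPKM in GFP and 19.6, 22.7 and 56.6 in Tom, adjusted p = 0.198). Gsta4, a glutathione transferase for lipid aldehydes, was the only one of 17 Nrf2 target genes called (list median 0.12), higher in Tom with 76.3, 51.8 and 30.2 FPKM in GFP, 206, 147 and 161 in Tom and 2.39, 1.01 and 1.03 in Co (-1.76 ± 0.22, adjusted p = 0.0128), and in b-KCs its difference was -2.70 (adjusted p = 0.000299). Of 24 matrix proteases and inhibitors, 6 were higher in Tom (Adamts4, Adamts9, Plaur, Adamts1, Mmp2 and Adamts5) and 0 in GFP, with a list median of -0.32, where 4.12% of all genes were called higher in Tom. In b-KCs, Adamts4 and Adamts9 were below the level for a test, and Plaur, Adamts1, Mmp2 and Adamts5 were not called (adjusted p = 0.305, 0.427, 0.466 and 0.999). The summed endothelial markers were higher in the same 3 Tom libraries, and their part in these differences was not tested. Plaur, the urokinase receptor, had 2.70, 3.97 and 5.48 FPKM in GFP and 16.3, 21.5 and 15.4 in Tom (adjusted p = 0.00857). Adamts1, Adamts5 and Mmp2 did not pass without mouse 814 (adjusted p = 0.0886 to 0.242) or without mouse 815 (0.108 to 0.177).

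Of 218 genes tested in 11 lists of signalling and metabolism, 16 were called (7.34%, against 5.42% of all genes). Of 22 known AP-1 target genes tested (median 0.13), Tslp, Ivl and Egfr were higher in GFP and Il6 and Plaur were higher in Tom. Of 17 NF-kB feedback genes (-0.11), Rel was higher in GFP (0.96, adjusted p = 0.0287), and Icam1 and Traf1 were higher in Tom. Il6st was the only one of 18 STAT3 pathway genes called (-0.034), and Bmp4 the only one of 27 Wnt and BMP genes (0.093), both higher in Tom. Among immediate early genes outside AP-1, Klf2, which endothelium expresses strongly, and Gadd45g were higher in Tom and 22 of 24 did not pass (0.021). In b-KCs, Klf2 and Gadd45g were not called (0.44 and 0.18, adjusted p = 0.106 and 0.706). Of 20 interferon-stimulated genes (-0.34), Iigp1 and Gbp3 were higher in Tom. Their median was -0.47, -0.69 and 0.028 in mice 814, 815 and 817, with 12 of 20 above 0 in mouse 817, and -0.55 to -0.18 with 1 mouse left out. Of 14 heat shock genes (0.094), Cryab was higher in GFP. Crabp2, a retinoic acid carrier, was the only one of 14 vitamin D and retinoid genes called (0.19), higher in GFP (1.23, adjusted p = 0.0451). No member was called among 19 antigen presentation genes (-0.059), 19 glycolysis genes (0.17) and 24 cytosolic ribosomal protein genes (-0.21), where at an adjusted p under 0.05 limma called 652 of all genes and at an unadjusted p under 0.05 it gave 1101 higher in GFP and 1294 higher in Tom. The ribosomal genes were lower in GFP in mice 814 and 815, where 0 of 24 were above 0, and higher in mouse 817, where 24 of 24 were. Rel, Traf1, Icam1, Bmp4, Gadd45g, Gbp3, Cryab, Crabp2, Ivl and Egfr did not pass without mouse 814 (adjusted p = 0.0598 to 0.387) or without mouse 815 (0.0869 to 0.327).

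**Figure D4:**
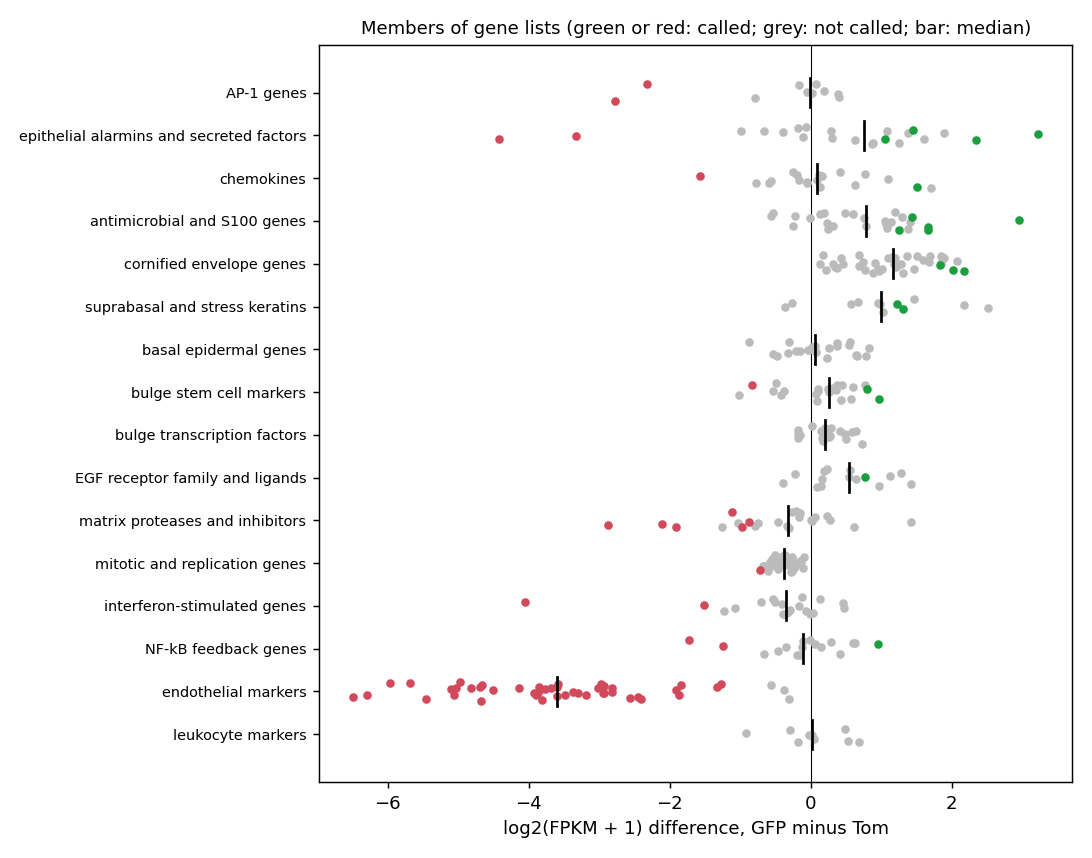
Differences between GFP and Tom, as log2(FPKM + 1), for the tested members of 14 gene lists and 2 marker lists, with called genes in green (higher in GFP) or red (higher in Tom) and a bar at the median. Endothelial markers lie between -6.49 and values near 0 with 45 of 48 called, cornified envelope genes all lie above 0 with 3 called, and mitotic genes all lie below 0 with 1 called.

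Vascular transcripts made the largest differences and are set apart here. Of the 62 endothelial markers listed, 61 were in the table, 48 were tested and 45 were called higher in Tom, with a median of -3.60. This count and median rest on markers that reached the level for a test mostly through Tom, since all 48 were at 1 FPKM or more in the 3 Tom libraries, 21 in no GFP library and 9 in all 3 GFP libraries, and 6 of these 9 were called. The 8 venule and endothelial adhesion genes tested, of 11 listed, entered the test in the same way, with 8 at that level in the 3 Tom libraries and 2 in all 3 GFP libraries, and were called higher in Tom with a median of -4.61. Sele, on chromosome 1, 165978365 to 165987808, was at 4.12, 2.70 and 0.0867 FPKM in mutant cells, 307, 428 and 142 in non-mutant cells and 20.8, 21.9 and 12.2 in Co (-6.60 ± 0.24, adjusted p = 0.000437). Pecam1, a junction protein of endothelium, had 3.57, 4.52 and 0.547 FPKM in GFP, 209, 234 and 66.3 in Tom and 10.6, 12.9 and 8.62 in Co, and its difference was nearly constant over the mice (-5.52, -5.41 and -5.44). Ackr1 and Selp, which mark venules, differed by -6.54 and -6.50, the fatty acid carrier Fabp4 by -6.49, and the fenestral protein Plvap by -6.30. Vcam1 had 1.15, 0.605 and 0.161 FPKM in GFP and 76.1, 91.7 and 14.7 in Tom.

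Summed over the 61 markers, endothelial FPKM was 155, 181 and 121 in HF-SC GFP, 4219, 3811 and 1110.1 in HF-SC Tom, 393, 379 and 315 in HF-SC Co of mice 810, 825 and 828, and 77.8 to 131 in the 6 b-KC libraries of the DKO* mice. Tom libraries of mice 814 and 815 held the most, that of mouse 817 fewer, and GFP libraries fewer than Co. Of the 53 endothelial and venule markers called, 52 had each Tom library above each Co library (98.1%, against 24.9% of all genes tested), and 43 had each GFP library below each Co library (81.1%, against 27.4%). Choosing genes higher in Tom than in GFP favours both, and among all 496 genes called higher in Tom the shares were 83.5% and 50.6%. Co libraries were not split by the reporter as far as their labels show, so they are no like-sorted baseline for either fraction. Of the 61 markers, 2 to 8 were listed at 0 in a GFP library, among them Robo4 and Aplnr in mouse 817, and at most 1 in a Tom library. Of markers of other cell types, against 4.12% of all genes, those higher in Tom were 2 of 4 pericyte and smooth muscle markers (Tagln and Mylk), 2 of 12 fibroblast markers (Sparc and Fbn1) and 1 of 7 melanocyte markers (Ednrb, which endothelium also carries), and 0 of 9 leukocyte, 0 of 3 Schwann cell, 0 of 3 red blood cell, 0 of 1 skeletal muscle and 0 of 1 lymphatic markers were called. Positive differences, that is higher values in GFP, were found in 1 of the 4 pericyte, 4 of the 12 fibroblast and 6 of the 7 melanocyte markers. The medians of these lists were -0.93, -0.19 and 0.55. The 17 fibroblast markers summed to 149.9, 225 and 110.5 FPKM in GFP and 525, 525 and 259 in Tom without overlap, beside 447 to 456 in Co. None of 7 adipocyte markers reached the level for a test. The lymphatic marker, Lyve1, had 1.19, 0.771 and 1.34 FPKM in GFP and 9.76, 24.7 and 1.71 in Tom (adjusted p = 0.142). Calls were lost without mouse 814 for Mylk (adjusted p = 0.0667) and without mouse 815 for Mylk, Tagln and Ednrb (adjusted p = 0.0533 to 0.118).

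Outside the marker lists, the largest differences on the Tom side were those of Gm16548, Ctla2a, S1pr1, Tmem252, Mustn1, Rasa4, Il6, Tm4sf1, Apold1, Meox2, Entpd1, Gng11, Eln, Cfb and Gngt2, from -5.12 to -4.16. S1pr1, the sphingosine phosphate receptor of endothelium and lymphocytes, had 1.26, 1.28 and 0.306 FPKM in GFP and 93.2, 82.7 and 31.8 in Tom. Cfb, complement factor B, had 2.98, 3.41 and 0.919 FPKM in GFP and 87.6, 81.3 and 27.4 in Tom, and Eln, the elastin gene, had 0.652, 3.09 and 0.590 in GFP and 54.9, 46.4 and 25.1 in Tom. S1pr1, Cfb and Eln had their lowest Tom value in mouse 817, and the share of all genes with that order was not counted. Of 15 VEGF ligands and guidance factors tested (median 0.054), Edn1, Angpt2 and Vegfc, which endothelial cells or their neighbours make, were higher in Tom, by -2.74, -2.21 and -1.79. Vegfa, a ligand that keratinocytes make, did not pass (24.9, 23.9 and 14.2 FPKM in GFP and 9.47, 7.03 and 17.8 in Tom, adjusted p = 0.275). Of the signalling lists, 2 of 17 NF-kB, 1 of 18 STAT3 and 2 of 20 interferon genes were called higher in Tom. Of these, Icam1 differed (91.7, 109 and 121 FPKM in GFP and 437, 519.6 and 195 in Tom, adjusted p = 0.0471), as did Il6st, the receptor chain shared by interleukin-6 family cytokines (19.5, 26.8 and 30.9 in GFP and 107, 148 and 75.5 in Tom, adjusted p = 0.0128), and the interferon-induced Iigp1 (0.947, 0.744 and 0.0429 in GFP and 41.9, 50.9 and 6.25 in Tom, adjusted p = 0.0058). In b-KCs, Icam1 was called in the other direction, higher in GFP (0.76, adjusted p = 0.0215). Il6st was not called there (0.14, adjusted p = 0.74), and Iigp1 was below the level for a test. The part of endothelial cells in these differences was not tested.

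The b-KCs of the same mice held few endothelial transcripts, and the same contrast in them was set beside that of HF-SCs. An exception was Lrg1, from the venule list, with 143, 86.9 and 9.39 FPKM in mutant and 14.3, 6.56 and 2.46 in non-mutant b-KCs. Of the 12039 genes tested in HF-SCs, 10942 also reached 1 FPKM in 3 or more of the 6 b-KC libraries and were tested there. The 1097 genes below that level held 294 of the 496 genes higher in HF-SC Tom and 14 of the 156 genes higher in HF-SC GFP. These counts rest partly on the level filter, since 193 of the 294 reached 1 FPKM in no GFP library and entered the test through Tom alone. Likewise, 5 of the 14 reached that level in no Tom library and entered through GFP alone. Of the 142 genes higher in HF-SC GFP and tested in b-KCs, 82 were also called on the GFP side of b-KCs and 0 on the Tom side, where 4.69% and 1.91% of all genes were called, and 139 had a positive difference. Their median was 1.17 in HF-SCs and 0.81 in b-KCs. Of the 202 genes higher in HF-SC Tom and tested in b-KCs, 32 were called on the Tom side of b-KCs and 10 on the GFP side, and 116 had a negative difference, with medians of -1.37 in HF-SCs and -0.10 in b-KCs. The fractions of both cell types came from the same 3 mice.

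**Figure D5:**
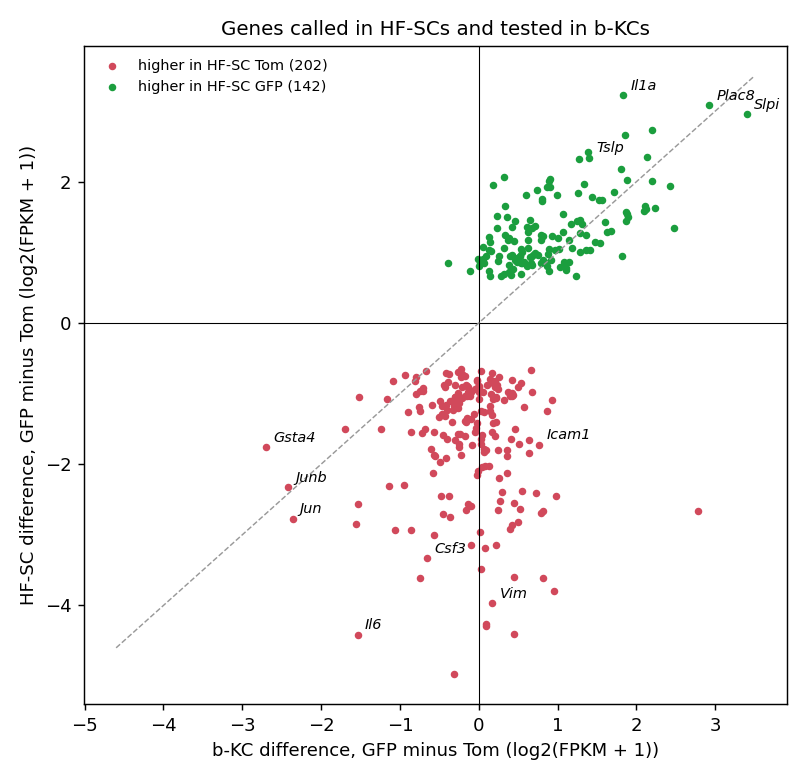
Difference between GFP and Tom in HF-SCs against the same difference in b-KCs of the same mice, both as log2(FPKM + 1), for genes called in HF-SCs and tested in b-KCs, with a dashed line of equal differences. HF-SCs are on the vertical and b-KCs on the horizontal axis. The 142 genes higher in HF-SC GFP lie almost all to the right of 0, whereas the 202 genes higher in HF-SC Tom spread on both sides of 0.

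Tslp, Il1a and Slpi were among the 82 shared genes. In b-KCs, Tslp had 55.2, 52.9 and 30.1 FPKM in GFP and 12.9, 13.6 and 24.2 in Tom (1.40, adjusted p = 0.0229), Il1a had 38.9, 40.6 and 11.6 in GFP and 7.00, 7.58 and 5.73 in Tom (1.83, adjusted p = 0.00478), and Slpi had 295, 328 and 98.7 in GFP and 17.4, 25.8 and 15.8 in Tom (3.40, adjusted p = 0.000371). The differences of Tslp and Il1a were larger in HF-SCs by 0.94 and 1.40, which did not pass the test of the difference (adjusted p = 0.355 and 0.142). Over all genes, the difference was larger in HF-SCs for 28 of 12359 (0.227%) and smaller, that is more toward Tom, for 494 (4.0%). Without mouse 814 limma gave 0 and 82, without mouse 815 it gave 0 and 98, and without mouse 817 it gave 793 and 1123. At an unadjusted p under 0.05, 161 genes were larger in HF-SCs without mouse 814 and 104 without mouse 815. Jun and Junb, at -2.36 and -2.42 in b-KCs, did not pass that test (adjusted p = 0.814 and 0.948). Slc26a4, an anion exchanger, was higher in HF-SC GFP (2.06) and not called in b-KCs (0.32), and the test of the difference did not pass (adjusted p = 0.168). Krt75, a companion layer keratin, was higher in HF-SC GFP and its difference was larger than in b-KCs, where at most 0.443 FPKM were read (1.12, adjusted p = 0.00891).

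Genes higher in mutant cells were often above the control level in non-mutant cells too. Of the 156 genes higher in HF-SC GFP, 106 had each GFP library above each Co library (67.9%, against 25.2% of all genes tested), and in 73 of them each Tom library was above each Co library as well (46.8% of the 156, against 18.2%). For 45 of the 156, each Tom library was below each Co library (28.8%, against 23.9%). Choosing genes higher in GFP than in Tom favours GFP above Co and Tom below Co. Krt75 and Cryab are among the 45. Krt75 was at 5.21, 5.27 and 3.26 FPKM in GFP, 1.63, 1.39 and 1.08 in Tom and 6.43, 8.11 and 6.83 in Co, and Cryab, a small heat shock protein, at 8.99, 10.03 and 8.42 in GFP, 3.86, 4.11 and 3.56 in Tom and 39.2, 35.1 and 36.3 in Co. For these genes mutant cells lay closer to control cells than non-mutant cells did. Control libraries came from other mice and are not labelled as split by the reporter, and no test was made against them.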

How the data were processed

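RNA from sorted cells was amplified with SMART-Seq v4 and made into unstranded Nextera XT libraries, which the authors read as 51-base single ends, aligned to NCBI37/mm9 with TopHat2 2.0.10 and Bowtie 1.0.0 (2 mismatches, 20 multihits) and turned into FPKM with Cufflinks 2.2.1, versions as in the submitters' processing notes. The deposited table holds FPKM for 23951 genes and no read totals. Reads of overlapping or antisense genes, and of near-identical gene copies such as Sprr2, Stfa and defensin genes, may be shared between them. Depth was estimated from the steps of low FPKM values (77.8% to 81.2% of them were whole reads within 0.1), and these estimates cover counting error only.

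Genes that reached 1 FPKM in 3 or more of the 6 HF-SC libraries were tested with limma 3.58.1 (R 4.3.3, trended eBayes) on log2(FPKM + 1) with the mouse as a fixed block, and p-values were adjusted by Benjamini-Hochberg over all 12039 genes. Calls were made at an adjusted p under 0.05. The same fit was made for b-KCs, and the difference of the differences was tested over the 12 DKO* libraries. Replicates are mice. Fractions were paired by the mouse number of the labels, which marks the same animal. Deviations from the group means correlated at 0.61, 0.07 and 0.44 between the fractions of mice 814, 815 and 817, and at -0.60 to 0.38 between fractions of different mice. For mouse 815 the GFP library correlated better with Tom of mouse 817 (0.11) and the Tom library better with GFP of mouse 814 (0.38) than with each other.

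The text names Jun, Junb, Tslp and Sele, the 15 genes in each direction with the largest difference among called genes outside the marker lists (same sign in the 3 mice, GFP and Tom libraries apart), the 10 largest on the marker lists, up to 4 examples for each gene list, and secreted factors named by the study. Cd34, keratins of the basal and bulge layers, Crlf2, Areg, Vegfa, S100a8, Lrg1 and further called list members are named besides, chosen with their values known. Members, lists and rules were chosen with earlier results of these data known. Gene positions come from the NCBIM37 annotation, and promoters from RefSeq on GRCm38.p6. Alternatives were another pseudocount (0.1), no filter or 5 FPKM, other blocks, no trend, 2 scalings, stricter thresholds and leaving out each mouse.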

Additional observations from a re-analysis of the deposited data

Results flagged for a closer look

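The contrast of GFP with Tom was tested for a difference between HF-SCs and b-KCs of the same mice, and values below are the HF-SC difference minus the b-KC difference on the log2(FPKM + 1) scale, with an adjusted p under 0.05 in limma for each. Negative values lay further toward Tom in HF-SCs. Over all 12359 genes in this test, 28 were larger (0.227%) and 494 smaller (4.0%) in HF-SCs, and the 50 genes listed here are among them. Of the 50 genes, 36 were below the level for a test in b-KCs, so that their values mostly restate the HF-SC difference, as for Sele (-6.60 in HF-SCs). The 14 tested in b-KCs were Tm4sf1, Gng11, Lrg1, Plaur, Csf3, Cd200, Icam1, Nfkbie, Il6st, Il2rg, Gsta3, Gadd45g, Edn1 and Adamts5. Among endothelial and venule genes these were Sele (-6.56), Ackr1 (-6.43), Selp (-6.28), Fabp4 (-6.09), Aqp1 (-5.94), Plvap (-5.63), Lrg1 (-5.45), Pecam1 (-5.37), Vcam1 (-5.16), Emcn (-5.06), Esam (-5.02), Gimap6 (-4.64), Robo4 (-3.42) and Aplnr (-2.92). Among the leading genes outside the marker lists they were Gm16548 (-5.03), S1pr1 (-4.90), Tm4sf1 (-4.85), Ctla2a (-4.72), Tmem252 (-4.49), Mustn1 (-4.36), Gng11 (-4.36), Entpd1 (-4.30), Meox2 (-4.27), Cfb (-4.18), Eln (-4.17), Rasa4 (-4.16), Apold1 (-4.02) and Gngt2 (-3.88). In HF-SC Tom, the 61 endothelial markers summed to 1110.1 to 4219 FPKM, against 77.8 to 131 in b-KCs of these mice. Their part in these differences was not tested.

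On the marker lists of mural cells, fibroblasts and melanocytes, the genes that differed were Fbn1 (-2.46), Tagln (-2.20), Ednrb (-1.97) and Mylk (-1.64). Of the melanocyte markers tested in HF-SCs, 6 of 7 had a positive difference, Ednrb being the other. Inflammation and stress signalling genes were Iigp1 (-4.04), Csf3 (-2.67), Icam1 (-2.49), Il6st (-2.16), Il2rg (-2.12), Gadd45g (-1.26) and Nfkbie (-0.94). Matrix protease genes were Adamts4 (-3.04), Adamts9 (-2.24), Adamts5 (-0.98) and Plaur (-1.51), and vascular factors were Edn1 (-2.38), Angpt2 (-2.05) and Vegfc (-1.83). The bulge marker Cd200 (-2.28) and the glutathione transferase gene Gsta3 (-1.16) were not called in HF-SCs, where Cd200 differed by -1.02 (adjusted p = 0.0811) and Gsta3 by 0.50 (adjusted p = 0.151), and both were called higher in GFP in b-KCs, by 1.26 for Cd200 and 1.66 for Gsta3. Lrg1 was likewise higher in GFP in b-KCs, by 2.78. Nfkbie (-0.66, adjusted p = 0.135) and Cyp26b1 (0.94, adjusted p = 0.0502) were not called in HF-SCs either. In the opposite direction, with a higher difference in HF-SCs, stood Cyp26b1 (1.38) and Krt75 (1.12), a retinoic acid hydroxylase and a companion layer keratin. Neither passed without mouse 814 or without mouse 815, where limma gave 0 genes in this direction.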

How the results depend on the processing

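All 156 genes higher in GFP and all 496 higher in Tom kept their direction under every alternative that gave them a value, and counts of calls moved. No filter on low values gave 22 and 123, a filter of 5 FPKM 110 and 279, no replicate block 59 and 318, no replicate block over all 18 libraries 346 and 719, a random replicate block 665 and 963, and a fixed replicate block over 12 libraries 475 and 772. Scaling on basal epidermal genes gave 37 and 229 and moved the median of all genes from 0.020 to -0.19. A log2 difference of at least 1 gave 98 and 431, and an adjusted p under 0.01 with at least 2 gave 10 and 160. With 1 mouse left out, counts ranged from 39 to 2288 and from 270 to 2302. For the difference between HF-SCs and b-KCs (28 and 494), no replicate block gave 6 and 301, and leaving out 1 mouse gave 0 to 793 and 82 to 1123 in limma. No filter enlarged the table to 19002 genes, and the cause of the other changes was not tested.

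List medians moved by more than the spread between mice as follows. With basal scaling they were -0.23 for AP-1 genes, -0.13 for chemokines, -0.50 for matrix proteases, -0.013 for cell cycle inhibitors, -0.34 for NF-kB, -0.25 for STAT3, -0.68 for the Tslp receptor pathway, -0.052 for Notch, -0.14 for Wnt and BMP, -0.11 for Nrf2, -0.19 for immediate early, -0.13 for heat shock, -0.38 for fibroblast and -0.30 for skeletal muscle genes. A pseudocount of 0.1 gave -0.45 for matrix proteases, -0.53 for the Tslp receptor pathway, -5.24 for endothelial, -5.51 for venule, -1.53 for pericyte and 1.39 for melanocyte markers. A filter of 5 FPKM gave 0.29 for chemokines, -0.30 for the Tslp receptor pathway and 0.38 for the 1 pericyte marker left. With 1 mouse left out, medians ranged from -0.11 to 0.092 for AP-1 genes, -0.52 to -0.38 for matrix proteases, 0.12 to 0.32 for cell cycle inhibitors, -0.44 to -0.27 for the Tslp receptor pathway, 0.11 to 0.36 for Notch and -0.35 to -0.11 for fibroblast genes. Of the genes named outside the section of flagged results, Il1b reversed without mouse 815 (-0.71 to 0.20 over the 3 mice left out), Itga6 with basal scaling (-0.15) and without mice 814 (-0.060) or 815 (-0.033), and Krt15 with basal scaling (-0.13), none of them called. On 1 kb of transcript, values under 0.116 to 0.182 FPKM rest on fewer than 3 reads.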
